A study of Homo sapiens with 4 samples.

Results

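The sites described here are 8635 intergenic CUT&RUN intervals of full-length SOX2 that lay within reach of a protein-coding gene and were absent from the list of the SOX2 DNA-binding domain. They are 14.9% of the 57907 unique intervals in the SOX2 list. They were selected on the measured lists: an interval qualified if its row in the SOX2 list lacked the 7th column that marks rows also present in the SOX2-DBD list, if its centre lay outside every annotated gene, and if that centre was more than 1 kb and less than 250 kb from the nearest transcript start of a protein-coding gene (hg19, GENCODE release 44 mapped to GRCh37). Their absence from the SOX2-DBD list is therefore how they were chosen and is not a finding.

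The cells were BJ fibroblasts, an established line from human foreskin. CUT&RUN, which cuts out and sequences the DNA beside an antibody-bound protein, was done 48 h after ectopic expression began, with an antibody against the V5 tag. The groups were V5-tagged SOX2 and V5-tagged SOX2-DBD, its DNA-binding domain without the rest of the protein, with 2 samples in each of the 2 groups. The lists used are those attached to replicate 1 of either group, and whether they pool replicates is not stated. The vector, the level of each protein and the sequencing depth are not given in the sources used here.

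SOX2 is a transcription factor of the HMG-box family, known for its role in pluripotent and neural stem cells. The HMG box binds the minor groove of short sequences built around ACAAAG or ACAATG and bends the DNA, and SOX2 is called a pioneer factor because it can bind DNA that is wrapped around nucleosomes. Distal intergenic DNA holds many enhancers, where factors such as AP-1 (FOS and JUN dimers, site TGACTCA or TGAGTCA) and TEAD (site GGAATG, partners of the Hippo pathway coactivators YAP and TAZ) act in fibroblasts.

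There was 1 list per group, which leaves every value without a replicate error and allows no test between conditions. The intervals in parentheses are 95% confidence intervals (Wilson for shares, Newcombe for differences of shares, exact Poisson for counts per Mb, order statistics for medians). They cover counting error over sites, which are not replicates, and those for densities are too narrow because sites cluster.

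The 6 sites below show the range of sequence under these intervals, as the middle 300 bp of each from GRCh37, plus strand, in lower case with SOX core (ACAAAG or ACAATG) and AP-1 matches on either strand in capitals. The OSBPL11 site had the highest total signal, and the TGFA and RASSF8 sites the most SOX core matches in the central 200 bp. The STEAP1B site had the highest total among members with both motifs, the PCDH18 site was the strongest at 1 of the genes with the most members, and the WSB1 site was the strongest of the longest run of members. These last 3 were chosen after their values were seen.
73.2 kb upstream of OSBPL11, chr3:125387389-125387688: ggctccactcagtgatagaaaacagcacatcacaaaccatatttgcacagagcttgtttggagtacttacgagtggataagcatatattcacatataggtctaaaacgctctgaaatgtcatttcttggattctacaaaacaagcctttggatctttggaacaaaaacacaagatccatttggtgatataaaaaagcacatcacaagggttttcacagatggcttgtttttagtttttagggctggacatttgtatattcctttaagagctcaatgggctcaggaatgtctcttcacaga
38.4 kb upstream of TGFA, chr2:70819593-70819892: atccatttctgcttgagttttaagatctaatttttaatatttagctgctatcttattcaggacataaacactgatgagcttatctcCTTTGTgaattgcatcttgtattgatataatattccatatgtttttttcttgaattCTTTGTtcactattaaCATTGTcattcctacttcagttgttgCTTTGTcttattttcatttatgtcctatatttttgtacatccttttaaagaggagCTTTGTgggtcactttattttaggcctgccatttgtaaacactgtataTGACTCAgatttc
51.4 kb upstream of RASSF8, chr12:26059623-26059922: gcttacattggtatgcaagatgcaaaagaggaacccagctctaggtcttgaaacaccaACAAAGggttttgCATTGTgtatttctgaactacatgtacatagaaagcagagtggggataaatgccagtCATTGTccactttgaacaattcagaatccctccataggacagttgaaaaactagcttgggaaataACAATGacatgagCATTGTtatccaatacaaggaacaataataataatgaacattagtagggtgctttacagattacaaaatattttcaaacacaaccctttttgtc
32.3 kb upstream of STEAP1B, chr7:22799369-22799668: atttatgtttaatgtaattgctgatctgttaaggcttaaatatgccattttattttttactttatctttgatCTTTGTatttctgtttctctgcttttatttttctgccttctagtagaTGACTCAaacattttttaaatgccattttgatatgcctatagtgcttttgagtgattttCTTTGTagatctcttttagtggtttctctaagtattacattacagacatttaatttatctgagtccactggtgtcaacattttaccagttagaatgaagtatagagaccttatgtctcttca
95.2 kb upstream of PCDH18, chr4:138548691-138548990: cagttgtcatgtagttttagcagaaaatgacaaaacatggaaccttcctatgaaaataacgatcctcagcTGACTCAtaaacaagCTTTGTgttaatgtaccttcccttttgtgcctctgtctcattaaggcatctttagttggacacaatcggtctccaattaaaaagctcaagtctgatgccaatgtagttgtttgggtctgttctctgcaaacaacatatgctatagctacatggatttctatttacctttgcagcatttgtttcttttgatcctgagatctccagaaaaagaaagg
115 kb upstream of WSB1, chr17:25505973-25506272: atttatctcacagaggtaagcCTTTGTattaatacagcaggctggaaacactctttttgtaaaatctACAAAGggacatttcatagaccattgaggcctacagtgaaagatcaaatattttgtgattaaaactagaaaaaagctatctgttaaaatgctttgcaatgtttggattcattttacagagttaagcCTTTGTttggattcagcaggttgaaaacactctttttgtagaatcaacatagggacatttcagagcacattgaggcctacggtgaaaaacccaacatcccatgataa
The site with the highest total signal held no SOX core or AP-1 match in these 300 bp, whereas the TGFA and RASSF8 sites held 5 SOX core matches each at total signals of only 1718 and 1572, under the members' median. At the PCDH18 site an AP-1 match and a SOX core match lay close together.

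Members were narrow intervals with a limited spread of signal. The members' median width was 552 bp (interquartile range 432 to 734 bp, extremes 124 and 4649 bp), and together they covered 5.34 Mb. Median width was 559 bp over all SOX2-only intervals and 513 bp over the whole SOX2 list. The total signal, the authors' deposited sum over an interval, had a median of 2254 (2220 to 2285) with an interquartile range of 1657 to 3245.5. That range was 1665 to 3260 over all SOX2-only intervals. The lowest member had 1184, which was also the lowest total of the whole SOX2 list. The highest had 21258, and 99% of members were below about 7550. The maximum signal had a median of 10 and ranged from 4 to 38. The normalization of this signal is not stated, so it was used only to rank and describe intervals of the SOX2 list.

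The members with the highest total signal were broad, which a sum over the interval favours, and most also had a high maximum. The site near OSBPL11, which encodes an oxysterol-binding protein family member, had a total of 21258 over 4649 bp but a maximum of only 11. The site 5.17 kb upstream of AHR, the aryl hydrocarbon receptor gene, followed with 14098 over 2618 bp. Sites near GNA14 (12789), VGLL3 (12521), TTC32 (12519), ADTRP (12518), DIAPH3 (11798), STEAP1B (11777), EEPD1 (11263) and MRPL3 (10901) made up the rest of the 10 highest totals. The maximum was 11 at OSBPL11 and GNA14 and 15 to 21 at the others, against an upper quartile of 12 over all members. Widths ranged from 1349 to 4649 bp, against an upper quartile of 734 bp. Among these 10, 4 had a SOX core match in the central 200 bp, with 3 matches at ADTRP, 2 at STEAP1B and 1 each at AHR and DIAPH3. Over all members the share with a match was 48.1%. The site near ALG10B on chromosome 12, singled out after the values were seen, had the highest maximum (38) in the narrowest interval (124 bp) and a total of 2082.

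The limits of the rule cut through a continuous range of distances. Just inside the 1-kb limit lay sites 1002 bp from LDAH (total 4577), 1008 bp from TAAR6 (1675) and 1022 bp from IL15RA (1802). Just outside it lay sites 1000 bp from VPREB3 (1825), 983 bp from VAMP4 (2436) and 943 bp from OAS1 (1900). Inside the 250-kb limit, sites 249823 bp from MTERF1, 249680 bp from CLEC14A and 249520 bp from VGLL3 had totals of 2156, 6137 and 1893, against 1227, 1261 and 1386 for the nearest sites beyond it, at RGMB, GADL1 and PLXNA2. The 1960 SOX2-only intergenic sites that lay 250 kb or more from a coding start, called desert sites here, had a median total of 2246.5. The difference of median totals between members and desert sites was 7.5 (-72.6 to 91.0), which is within counting error. Desert sites were wider, with a median of 575.5 bp (562 to 590) against 552 bp (546 to 558) in members. Their median signal per bp was lower, at 3.96 (3.92 to 4.02) against 4.15 (4.13 to 4.19).

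A SOX2 list labelled as down-sampled was attached to the same sample, so overlap with it is no independent check of the members' calls. Of the members, 5536 (64.1%, 63.1 to 65.1) overlapped it by at least 1 bp, against the background of 64.3% for all SOX2 intervals, so members were retained like the whole list. The share was 64.6% among the upper 50% of members by total signal, no more than counting error above that of all members. Among the 10 highest totals, 6 (at GNA14, VGLL3, TTC32, ADTRP, DIAPH3 and EEPD1) overlapped no interval of the down-sampled list. The way that list was produced is not given in the sources used here.

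Members had their highest density 10 to 25 kb from coding starts, with an interval that overlapped those of the bands beside it. Overlap does not measure the difference from those bands, which was not tested. Desert sites were sparser than members in each distance band. The median distance to the nearest coding start was 43.9 kb (interquartile range 18.1 to 99.5 kb). As the territory, the same rule applied to every 200-bp window of the genome gave 731 Mb, in which members had an overall density of 11.8 per Mb. Density was 8.82 per Mb (7.48 to 10.3) at 1 to 2.5 kb, 10.4 at 2.5 to 5 kb, 12.2 at 5 to 10 kb and 13.4 (12.8 to 14.0) at 10 to 25 kb. It then fell through 12.8 at 25 to 50 kb and 12.2 at 50 to 100 kb to 10.2 (9.78 to 10.6) at 100 to 250 kb, while desert sites reached 5.67 per Mb (5.42 to 5.92). The intervals at 5 to 10 kb (11.3 to 13.1) and 25 to 50 kb (12.3 to 13.5) overlapped that at 10 to 25 kb. The density at 10 to 25 kb was 1.52 times (1.29 to 1.79) that at 1 to 2.5 kb, and the members' density as a whole was 2.08 times (1.98 to 2.19) that of desert sites.

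**Figure D1:**
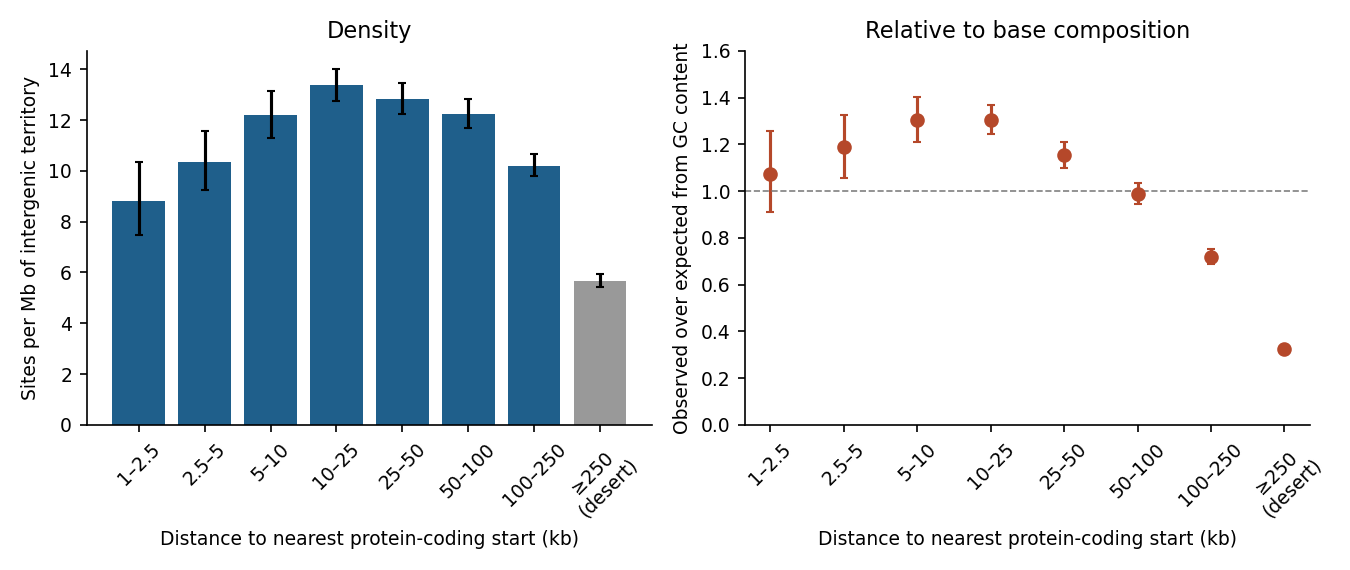
Sites per Mb of intergenic territory (left) and the observed count over the count expected from GC content (right) by distance to the nearest protein-coding transcript start in kb. Bars and points cover the members (desert sites for 250 kb or more), and error bars are 95% Poisson intervals. Density was highest at 10 to 25 kb, at 13.4 per Mb, with an interval that overlapped those of the bands beside it. The ratio to expectation fell from 1.30 at 10 to 25 kb to 0.325 in deserts.

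Base composition had a larger range of densities than distance did. The 200-bp windows at member centres had a mean GC content of 33.6%, against 40.4% in windows 10 kb downstream and 41.5% over the territory. Density rose from 8.74 per Mb in windows under 25% GC to 27.6 at 25 to 30% and 32.9 (31.8 to 33.9) at 30 to 35%. It was 17.8 at 35 to 40%, 4.06 at 40 to 45% and 0.493 at 45 to 50%. Windows of 50% GC or more were 18.9% of the territory and held 8 members, 0.0578 per Mb. CpG dinucleotides were likewise few, with 54.4% of members having none in the central 200 bp, against 28.0% of territory windows.

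**Figure D2:**
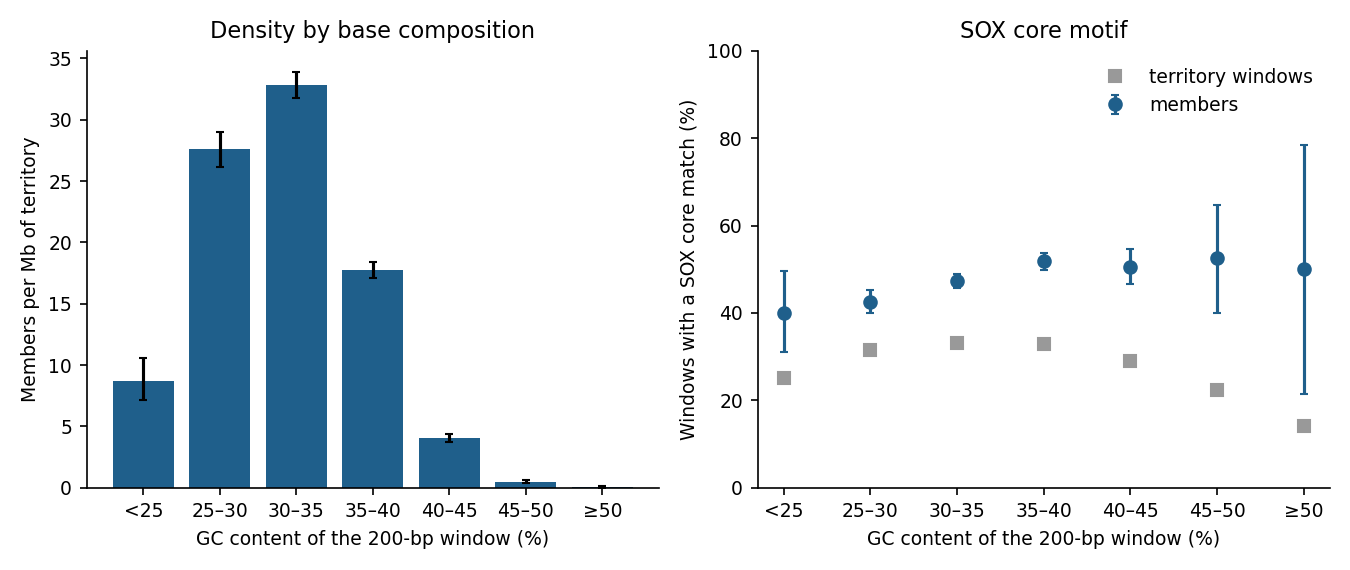
Members per Mb of territory (left) and the share of 200-bp windows with a SOX core match in members and in territory windows (right), by GC content of the window. Error bars are 95% Poisson (left) and Wilson (right) intervals. Density peaked at 32.9 per Mb for 30 to 35% GC, and members held the motif more often than territory in each band, with the widest interval for the 8 members of 50% GC or more.

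Because territory far from genes is richer in AT (mean GC 37.0% in deserts against 41.5% nearer to genes), the distance profile was set against the count that each band would have if members depended on GC content alone. This expectation sums the members' average density at each GC content, in steps of 2.5 points, over a band's windows. The observed count was 1.07 times (0.908 to 1.26) the expected count at 1 to 2.5 kb, 1.30 times (1.21 to 1.40) at 5 to 10 kb and 1.30 times (1.24 to 1.37) at 10 to 25 kb. It was 0.988 times at 50 to 100 kb, 0.720 times (0.690 to 0.751) at 100 to 250 kb and 0.325 times (0.311 to 0.340) in deserts. Relative to base composition, the decline with distance was thus steeper than in the densities themselves. With GC accounted for, the ratio of 1 to 10 kb against 100 to 250 kb was 1.72 (1.60 to 1.84), compared with 1.09 (1.01 to 1.17) without it.

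Members lay on both sides of coding starts. Upstream of the nearest start lay 5217 members (60.4%), at 12.2 per Mb (11.8 to 12.5), and downstream 3418, at 11.3 per Mb (10.9 to 11.7). The territory itself was 429 Mb upstream and 302 Mb downstream. The shared sites, 3167 intervals under the same location rule whose rows occurred in both lists, were 26.8% of all the intergenic SOX2 sites near genes. Their share was 32.7% (27.0 to 39.1) at 1 to 2.5 kb and between 25.1% and 27.8% in the bands from 2.5 to 250 kb. A lncRNA start lay within 1 kb of 58 members, and 145 members (1.68%) touched a gene with part of their length.

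Chromosomes differed more than GC content accounted for, above all the X chromosome. Chromosomes 3, 4 and 6 had the highest densities, each at 15.8 members per Mb, followed by chromosome 2 at 15.3. The X chromosome held 118 members, 2.10 per Mb (1.74 to 2.51), which was 0.148 times (0.123 to 0.178) its expectation from GC content. This expectation was not adjusted for chromosome copies, and cells from foreskin are male, with a single X. The effect of copy number was not tested. Shared sites on X were sparser still, at 0.196 per Mb, and formed 8.53% (4.83 to 14.6) of intergenic sites there against 26.8% overall. Chromosome 16 also fell short of expectation (0.503 times, 0.394 to 0.633), while chromosomes 17 (1.39 times, 1.20 to 1.60) and 2 (1.31 times, 1.22 to 1.40) exceeded it.

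The SOX core motif was concentrated at member centres. ACAAAG or ACAATG occurred on either strand in the central 200 bp of 4151 members (48.1%, 47.0 to 49.1), against 27.9% (27.0 to 28.9) of windows 10 kb downstream and 27.1% of windows 10 kb upstream. The difference from the downstream windows was 20.2 percentage points (18.7 to 21.6), a ratio of 1.72. Of all territory windows, 26.7% held the motif, or 32.5% when they were weighted to the members' GC content. In the band of 35 to 40% GC the shares were 51.8% in members and 32.9% in territory, and at 40 to 45% they were 50.6% and 28.9%. Per 1000 members, 161 matches fell in each 50 bp within 100 bp of the centre, against 83.5 at 500 to 1000 bp, a ratio of 1.92.

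Multiple SOX core matches were also more frequent than in neighbouring DNA. A single match occurred in 3079 members (35.7%), 2 matches in 910 (10.5%, 9.91 to 11.2), 3 in 149, 4 in 11 and 5 in 2. In the downstream windows 4.28% held 2 matches, and the mean number per window was 0.335 against 0.625 in members. No SOX core match was found in 4484 members (51.9%), and 3021 of them (35.0% of the 8635) also lacked the AP-1, TEAD, forkhead and octamer motifs searched. The longer form AACAATAG or AACAATGG was found in 3.35% of members against 1.78% downstream, and CATTGT in 24.6% against 12.7%. CATTGT is the reverse complement of ACAATG and so a part of the core motif. No member had CATTGT joined to the octamer ATGCAAAT directly or across 1 base, the arrangement of SOX2 and OCT4 sites in pluripotent cells, in the central 200 bp.

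The number of SOX core matches and the signal had no single relation. Median total signal was 2308.5 (2265 to 2354) in members with no SOX core match, 2211 (2169 to 2263) with 1 match, 2186 (2074 to 2254) with 2 and 2264 (2127 to 2512) with 3. The median maximum signal went the other way, at 9 with no match and 10 with 1, 2, 3 or 4 matches. When members were ordered by total signal and divided into 4 groups of equal size, the share with a SOX core match was 50.7%, 49.1%, 47.4% and 45.2% from the lowest to the highest group. Median width rose in the same order, from 398 to 492, 618 and 882 bp. Centred on the authors' region of maximum signal instead, which lay a median of 78 bp from the interval centre, the shares were 50.6%, 50.6%, 49.6% and 47.8%.

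AP-1 and TEAD motifs were enriched at members too, but AP-1 less than at sites shared with the DNA-binding domain, by an amount that varied with GC content. AP-1 matches occurred in 600 members (6.95%, 6.43 to 7.50), in 3.20% of downstream windows and in 2.61% of GC-weighted territory. The shared sites had them in 18.1% (16.8 to 19.5), so that members differed from shared sites by -11.2 points (-12.6 to -9.76). Desert sites (6.12%) and SOX2-only sites in introns (6.50%) were close to members. TEAD matches (GGAATG) occurred in 16.8% of members, 10.4% of downstream windows and 10.0% of GC-weighted territory, and in 20.1% of shared sites. By contrast the SOX core share was 49.3% at shared sites, and the difference of members from it, -1.19 points (-3.22 to 0.848), was within counting error. The longer SOX form was less frequent in members than in shared sites, with a difference of -0.853 points (-1.69 to -0.0936) that is beyond counting error. The widths and signals of shared sites are not comparable with the members', since their rows carry the same values in both lists and the group measured is not stated. The same limit holds for the centres of shared sites, on which their motif windows were placed. A 200-bp window also covers more of a shared interval, with a median width of 373 bp, than of a member, with 552 bp. The effect of either on the motif differences was not tested.

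**Figure D3:**
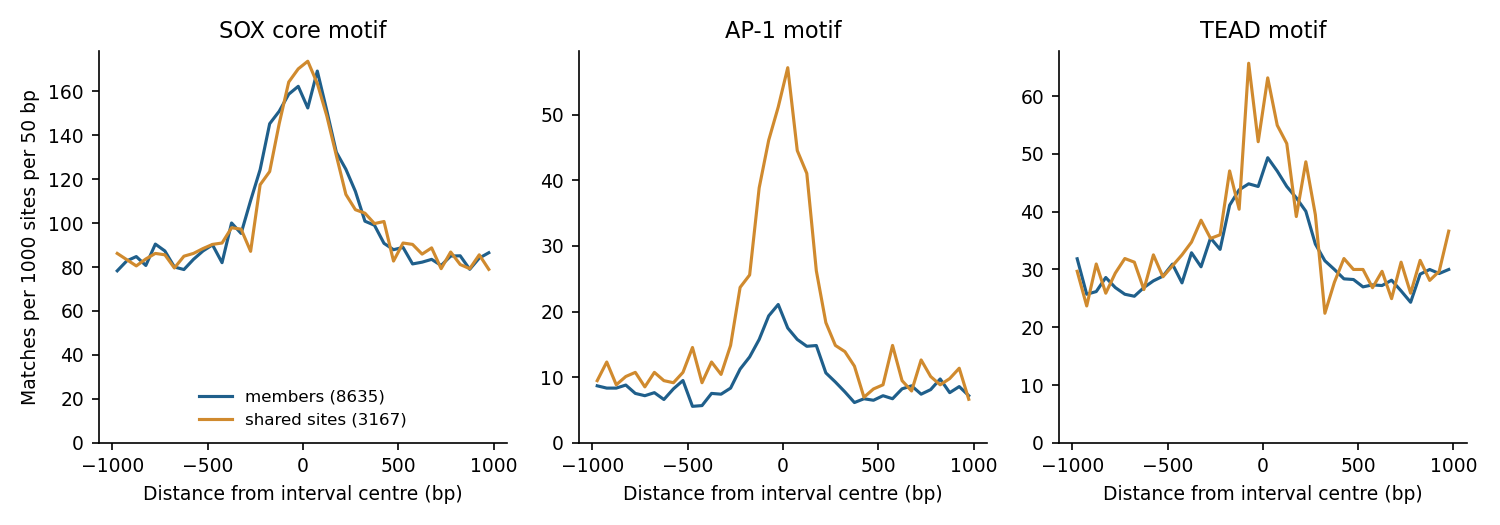
Motif matches per 1000 sites in 50-bp steps, by distance in bp from the interval centre, for the SOX core, AP-1 and TEAD motifs at the 8635 members and the 3167 shared sites. The SOX core profiles of both kinds of site nearly coincide, while AP-1 within 100 bp averaged 18.4 matches at members and 49.7 at shared sites.

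The difference in AP-1 was small in the windows of lowest GC and larger in those of higher GC. At 25 to 30% GC the AP-1 share was 6.89% in members and 7.90% in shared sites. At 30 to 35% it was 6.31% and 13.5%, at 35 to 40% it was 6.28% and 19.6%, and at 40 to 45% it was 13.6% and 26.5%. Mean GC content was 33.6% in members and 35.6% in shared sites. The distance bands below are not matched for GC. In members the AP-1 share ranged from 5.92% to 8.74% over the 7 distance bands, without a trend. In shared sites it was 28.4% at 1 to 2.5 kb, 21.1% at 2.5 to 5 kb, 23.4% at 5 to 10 kb and 15.5% to 18.5% in the bands beyond. Within 100 bp of the centre AP-1 was 2.30 times as frequent as at 500 to 1000 bp in members and 4.96 times in shared sites. Both AP-1 and SOX core matches occurred in 270 members (3.13%). The AP-1 share was 6.50% with a SOX core match and 7.36% without, a difference of -0.855 points (-1.93 to 0.220) that is within counting error. TEAD matches were less frequent beside AP-1 (11.5% against 17.2%, difference -5.72 points, -8.18 to -2.81), and matches to the RUNX motif TGTGGT were more frequent beside the SOX core (15.9% against 12.3%, difference 3.52 points, 2.05 to 4.99).

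Other motifs separated by base composition. The forkhead motif (TGTTTAC or TGTTTGC), bound by FOX factors, was in 9.54% of members, 6.12% of downstream windows and 7.85% of GC-weighted territory. The octamer was in 3.44%, 1.87% and 3.27%, and AGATAA, the GATA factor site, in 19.4%, 14.7% and 20.3%, so that both exceeded the neighbouring DNA but not territory of the same GC content. The RUNX motif was in 14.0% of members (13.3 to 14.8), which differed from the downstream windows by -0.126 points (-1.16 to 0.912) but was 1.18 times the 11.9% of GC-weighted territory. TTGGCA, part of the NFI factor site, was in 10.3% of members and 10.1% of GC-weighted territory, and differed from the downstream windows by 0.109 points (-0.798 to 1.02). CAGCTG, an E-box, was in 5.07% of members, 6.79% of downstream windows and 3.40% of GC-weighted territory. CCCTC, part of the CTCF site, was in 13.1%, 27.8% and 16.4%, and its profile dipped to 0.469 times the flanking level at member centres.

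All 2080 pairs of 6-mer and reverse complement were counted in the same windows, with the examples below picked after ranking. This count is not independent of the motif counts above. Relative to GC-weighted territory the median 6-mer had a ratio of 0.914. Highest were GAATGC (1.71), GACTCA (1.70), CATTCC (1.67), GAGTCA (1.62), ACAATG (1.58), CCATTC (1.57), CTATTC (1.53), AAAGGC (1.52), CAATTG (1.52) and ACAAAG (1.51). GACTCA and GAGTCA are parts of the AP-1 site, and CATTCC is the reverse complement of the TEAD motif. GAATGC, which overlaps it, was in 1163 members (13.5%) against 7.88% of GC-weighted territory.

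Part of the members lay in repeated sequence. Counting 31-mers with more than 1 copy in the genome, 71.7% (70.7 to 72.6) of member windows had none, against 61.7% of downstream windows, 54.8% of territory and 79.5% of shared sites. In 254 members (2.94%) at least 50% of the 31-mers were repeated, and 664 members (7.69%) held a 31-mer with 100 or more copies. The STEAP1B, PCDH18, TGFA and RASSF8 sites printed above had no repeated 31-mer.

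The motif differences were also present in unrepeated DNA, and density there was again highest at 10 to 25 kb. Among members without a repeated 31-mer the SOX core share was 47.0% against 28.4% in downstream windows of the same kind, and the AP-1 share 8.06% against 20.0% in shared sites. In members with at least 50% of their 31-mers repeated, the SOX core share was higher (62.2%, 56.1 to 67.9), as was the TEAD share (38.6%, 32.8 to 44.7, against 15.4% without repeats), while the AP-1 share was 1.97%. Per Mb of unrepeated territory, estimated from every 50th window, density was 12.8 at 1 to 2.5 kb, 18.5 (17.5 to 19.6) at 10 to 25 kb and 12.7 (12.1 to 13.3) at 100 to 250 kb, so the nearest band was no longer below the farthest. At 5 to 10 kb the density in unrepeated territory was 17.8 (16.3 to 19.4) and at 25 to 50 kb 17.2 (16.2 to 18.1). Both intervals overlapped that at 10 to 25 kb. How reads that match several places were treated is not stated in the sources used here.

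Members were spread over many genes, with a minority gathering many. Each member was assigned to the gene of its nearest coding start, which is a label of position and not of regulation. Of 15180 coding genes with territory, 3780 (the background share of 24.9%) had at least 1 member and 1974 had 1. At least 5 members were assigned to 424 genes, which held 3114 members (36.1%), and 70 genes had 10 or more.

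The 10 genes with the most members, which were chosen for their counts, had between 14 and 20 each. IL15, a cytokine that sustains natural killer and T cells, had 20 members from 23.7 to 236 kb away, 12 of them upstream, at 45.7 per Mb of its territory. PCDH18, a protocadherin, also had 20, at 54.0 per Mb, the nearest 1.39 kb upstream of its start and the strongest, with a total of 9459, 95.2 kb upstream. KITLG, the ligand of the KIT receptor, and SEMA3D, a secreted guidance cue, had 17 each. COL11A1, a fibrillar collagen chain, CXCL12, the chemokine that binds CXCR4, and PRR16 had 16 each. FAT4, a giant atypical cadherin, and MME, the membrane peptidase neprilysin, had 15 each. ANKRD50 followed with 14, taken before other genes with 14 by its symbol.

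At MME all 15 members were upstream, from 1.32 to 224 kb, with a median total of 4196 against 2254 over all members. How the territory of MME divides between its sides was not measured. The site 7.94 kb upstream of MME had a total of 4944 and 3 SOX core matches, and that at 162 kb a total of 5360 and 3 matches. At IL15, 8 of 20 members had a SOX core match, and at PCDH18 10 of 20, against 48.1% of all members. PCDH18 territory also held 10 shared sites, against 3 at IL15 and 1 at CXCL12.

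**Figure D4:**
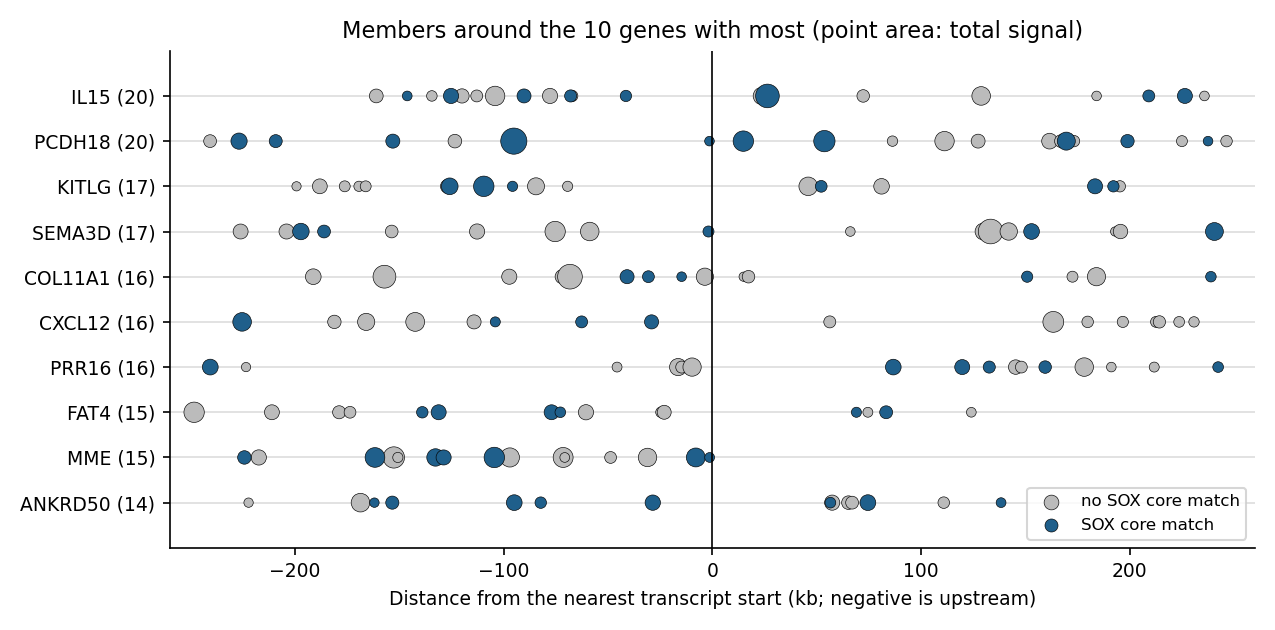
Members around the 10 genes with the most, by distance in kb from the nearest transcript start of the gene (negative is upstream). Each point is a member, its area is proportional to total signal, and dark points have a SOX core match in the central 200 bp. MME has members on the upstream side only, and the largest point is the PCDH18 site with a total of 9459.

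Genes with little territory but many members were ranked separately, after the values were seen, among genes with at least 5 members and 0.05 Mb. GK5 had 6 members in 0.0526 Mb (114 per Mb, all upstream), IFI44L 6 (94.6 per Mb), TIGD2 6 (91.2 per Mb) and NUBPL 8 (90.1 per Mb). MYF5, a myogenic transcription factor, had 6 at 87.0 per Mb and XDH, xanthine dehydrogenase, 9 at 83.3 per Mb.

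Of 12 gene lists, collagens and the TEAD and YAP pathway had the highest measured densities of members. This was not particular to members. Shared sites had 17.4 per Mb at collagens and 10.6 at the TEAD and YAP list, against 4.33 over all genes. The lists were drawn up with earlier results of these data known, so their order is a description. Of 21 collagen genes, 14 had at least 1 member, 61 in all, at 32.1 per Mb (24.6 to 41.3) against 11.8 over all genes. This was 2.18 times (1.67 to 2.80) the count expected from GC content. Collagen genes had a mean of 90.4 kb of territory each against 48.2 kb over all genes, so their share with a member cannot be read directly against 24.9%. The same limit holds for the counts of genes with a member in the other lists. COL11A1 had 16 members, COL12A1, a fibril-associated collagen, 13, and COL3A1, a main collagen of skin, 8 at distances from 3.02 to 86.2 kb. Without COL11A1 and COL12A1 the density was still 2.19 times (1.50 to 3.09) that of all genes, compared with 2.72 times with them.

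The TEAD and YAP list had 20 members at 5 of 10 genes, 30.3 per Mb (18.5 to 46.8). VGLL3, a cofactor of TEAD factors, held 12 of them, from 15.7 to 250 kb from its start, including the fourth-highest total of all members. Without VGLL3 the density was 1.67 times (0.719 to 3.28) that of all genes, an interval that includes 1. AMOTL2, an angiomotin family regulator of YAP, and ANKRD1, a common YAP target, had 3 members each. In the list of TGF-beta, BMP and activin ligands 9 of 17 genes had 39 members (15.0 per Mb, 10.7 to 20.6), with 9 at INHBA, a subunit of activin, 7 at TGFB2 and 6 at FST, an activin antagonist. The 39 members were 1.27 times (0.904 to 1.74) the count expected from GC content, an interval that includes 1. Over all genes 24.9% had a member, with 48.2 kb of territory each. Territory per gene was 66.0 kb in the TEAD and YAP list and 152 kb in the list of ligands.

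**Figure D5:**
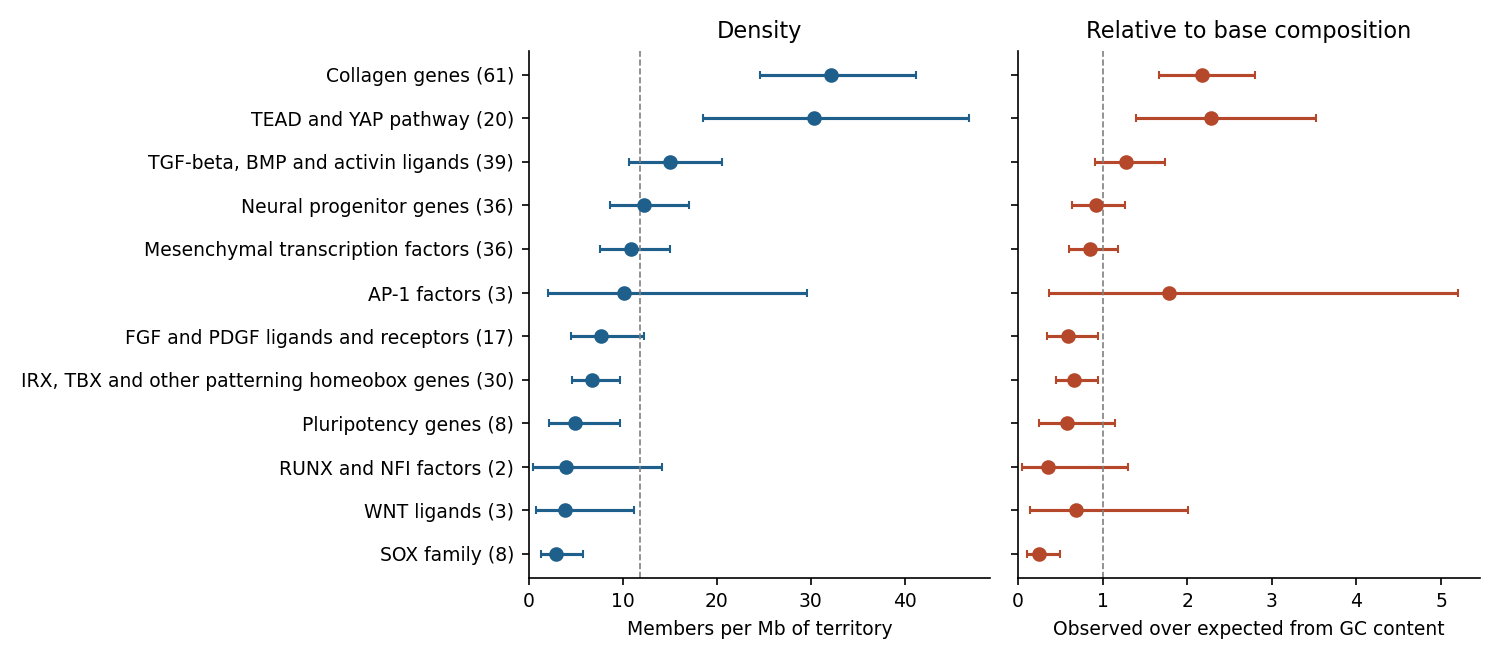
Members per Mb of territory (left) and observed over expected count from GC content (right) for the 12 gene lists, with the number of members in parentheses, 95% Poisson intervals as error bars, and dashed lines at the density of all genes (11.8 per Mb) and at a ratio of 1. Collagens and the TEAD and YAP list lie to the right of both lines and the SOX family to the left.

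Lists of developmental regulators had densities near or under that of all genes. Over all genes 24.9% had a member, with a mean of 48.2 kb of territory each. The 4 lists of this paragraph had 123 to 177 kb of territory per gene. Neural progenitor genes had 36 members at 12 of 23 genes (12.3 per Mb, 8.61 to 17.0), of which 14 were at GLI3, an effector of Hedgehog signalling, 5 at ZIC1 and 4 at GLI2. Mesenchymal transcription factors had 36 at 16 of 27 genes (10.8 per Mb), with 7 at MEIS2, 4 at SNAI2 and 4 at ZEB2. Patterning homeobox and T-box genes had 30 at 8 of 25 genes (6.78 per Mb, 4.58 to 9.69), led by ALX1 with 7 and LHX9 with 5. FGF and PDGF genes had 17 at 8 of 18 (7.67 per Mb), 7 of them at PDGFC, 3 at FGF20 and 2 at FGF18.

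SOX family and pluripotency genes had lower densities of members than the 11.8 per Mb of all genes. Pluripotency genes had 8 at 5 of 18 genes (4.92 per Mb, 2.12 to 9.70), which was 0.584 times (0.252 to 1.15) the count expected from GC content, an interval that includes 1. Of these there were 3 at SALL4 from 104 to 134 kb upstream, 2 at KLF4, 5.39 and 23.0 kb upstream, and 1 at LIN28A, 4.33 kb upstream. SOX family genes had 8 at 6 of 17 genes, 2.92 per Mb (1.26 to 5.75) and 0.252 times (0.109 to 0.496) the count expected from GC content. SOX6 and SOX9 had 2 each, and 1 of the 8 members held a SOX core match, against 48.1% of all members. WNT ligands had 3 members at 2 of 15 genes, 2 at WNT5A and 1 at WNT7B. RUNX and NFI factors had 2 at 2 of 8, with 1 at NFIA (total 6143) and 1 at RUNX1 (2410). AP-1 factors had 3 at 3 of 9 (10.1 per Mb, 2.09 to 29.6), with BATF (3717), BATF3 (3038) and FOS (1802) each having 1 within 5.52 kb of a start. In the lists with under 10 members the intervals are wide, and no order among these lists can be read. Over all genes 24.9% had a member, with 48.2 kb of territory each. Territory per gene ranged from 32.9 kb (AP-1 factors) to 161 kb (SOX family) in these lists.

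Most members stood alone, and the largest cluster was in partly repeated sequence. Joined within 10 kb, members formed 6893 runs, of which 5550 were single sites (64.3% of members) and 15 held 5 or more. The median gap between neighbouring members was 48.1 kb. The largest run had 12 members in 25.2 kb (chr17:25497697-25522897), 98.7 to 123 kb upstream of WSB1, with totals from 1465 to 5939 and a median of 2139. Of the 12, 10 had a SOX core match, against 48.1% of all members. In the same run 6 sites shared a 31-mer with another of its sites, and 11 held at least 1 31-mer found elsewhere in the genome. The next largest, 7 members in 26.3 kb between KITLG and TMTC3 (chr12:88719146-88745464), had 4 with a SOX core match, and runs of 6 lay near RFC3, MYOCD and GBE1.

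Members were nearer to a site of the DNA-binding domain than the territory at large, in a comparison that was not matched for GC content or chromosome. The median distance from a member to the nearest SOX2-DBD interval was 46.1 kb (interquartile range 17.0 to 105 kb), against 130 kb (41.6 to 374 kb) for territory windows. Within 10 kb of a SOX2-DBD interval lay 1374 members (15.9%), against 7.83% of territory windows. Within 2 kb lay 222 (2.57%), against 1.75%. Overlap itself was barred by the way members were chosen, which limits the shortest distances. The medians were 38.2 kb for desert sites and 37.3 kb for SOX2-only sites in introns.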

How the data were processed

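V5 CUT&RUN intervals from BJ fibroblasts expressing SOX2 or SOX2-DBD for 48 h were analysed. Total and maximum signal were deposited by the authors per interval, and the normalization of the signal is not stated. The 7th column, whose values are not explained, occurred only in rows also in the SOX2-DBD list, and positions were used as deposited. The submitters' processing notes name Bowtie2 2.3.4.1, SAMtools, bedtools 2.27.1, SEACR 1.3, deepTools 3.5.0 and hg19, with no parameters. Depth is unknown.

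Duplicate rows were counted once (59561 rows, 57907 intervals). Of 43607 intervals without a 7th column, 10649 centres lay outside genes, 54 of these within 1 kb and 1960 at 250 kb or more from a coding start, which left 8635 members. Territory comprised all 200-bp genome windows without undetermined bases under the same location rule. Motifs were sought on both strands as whole matches. The members and the 12 gene lists (227 genes) were chosen with earlier results of these data known. Named were the 10 highest totals, 3 sites beside each limit, the 10 genes with most members and the top 3 genes of each list. Exceptions are stated. A few named items were left out of the text.

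Functions were tested on simulated data, where 17 of 17 checks passed. Replicate 2 was not analysed here. Alternatives covered the location rule, signal, windows, motif, reference and repeats. Work used python 3.11.15, numpy 2.4.6, pandas 2.3.3, scipy 1.17.1, numba 0.67.0, matplotlib 3.10.9 and samtools 1.23.1.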

Additional observations from a re-analysis of the deposited data

How the results depend on the processing

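The member count was 8635 and stayed between 8389 and 8490 when whole intervals had to lie outside genes (8490), when only protein_coding transcripts counted (8422) and when members within 500 bp were merged (8389). The ratio of density at 1 to 10 kb over 100 to 250 kb, 1.09, was the value whose direction turned. It was 1.01 (0.913 to 1.12) for the upper 50% by total signal, 1.00 (0.931 to 1.08) with protein_coding transcripts only and 0.907 (0.843 to 0.977) against 50 to 100 kb, where it fell below 1. It was 1.72 relative to GC content and 1.27 (1.17 to 1.38) in windows without repeated 31-mers. The SOX core excess of 20.2 points was 12.1 in 100-bp windows, 1.56 with the longer motif, 11.9 with CATTGT, 21.7 at the region of maximum signal, 17.4 in the upper 50% by total signal and 18.6 without repeated 31-mers. Shorter windows and longer motifs hold fewer matches by construction. The AP-1 difference from shared sites, -11.2 points, was -6.33 in 100-bp windows and -9.71 in the upper 50% by signal. For that last value members and shared sites were each cut at their own median, although their signals are not comparable. The down-sampled overlap of 64.1% was 54.7% when at least 50% of a member had to be covered. The alternatives on GC content, repeats and gene lists were chosen after seeing the data. Causes were not otherwise tested. Of 35 alternatives, 21 kept the value within its counting interval or within 1.5 times the count, 13 moved it and 1 turned it. Among the 21, the difference in maximum signal from desert sites was judged on the interval of the total signal. That scale is larger, so this alternative could hardly move. Counting rows as deposited, also among the 21, left the member count at 8635. No paired analysis was possible because 1 list stood for each group. Depth is unknown, so a site missing from a list cannot be told from a site too shallow to call.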
